A study of Mus musculus with 4 samples.

Results

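The Zic genes encode zinc finger transcription factors named after the mouse cerebellum, where the first of them was found. 4 genes of the family, Zic1, Zic2, Zic4 and Zic5, were followed here across 4 libraries, chosen by gene symbol from the 55414 genes of a count table. All 4 passed the filter on low counts. The libraries are bulk messenger RNA from mouse brain, 2 from Stra8-KO animals (KO) and 2 from wild-type animals (WT), n = 2 libraries per genotype. Stra8 encodes a factor that germ cells need to enter meiosis. By the series design both genotypes carry the pStra8-GFP reporter, a green fluorescent protein (GFP) gene under the Stra8 promoter, and GFP-positive cells were sorted from hippocampi. The labels of the samples themselves give the tissue as brain. The sources used here do not give age, sex, strain background or the number of animals behind a library, so p-values compare these libraries and may measure technical spread.

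ZIC proteins carry a zinc finger domain closely related to that of the GLI factors of Hedgehog signalling, and they can bind related DNA sites. Zic1 and Zic2 keep granule cell precursors of the mouse cerebellum dividing, and both stay on in mature granule cells. Zic1 and Zic4 together are needed for cerebellar growth, Zic2 for the forebrain midline, and Zic5 for neural tube closure and neural crest in mice. In the mouse brain Zic genes are also active in the olfactory bulb, the septum, the thalamus and the leptomeninges, the membranes that cover the brain.

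Total counts lay between 71097417 and 82172740 reads per library. Libraries of 1 genotype differed by 2.47 (WT pair) and 2.56 (KO pair) times the Poisson variance, and libraries of different genotype by 3.58 to 3.83 times. Of counts from 1 to 20, 72.8% to 74.3% were even numbers, so a fragment appears to add 2 reads. Counting in this way by itself raises the variance above Poisson, so the ratios above are not spread between samples alone. Stra8 itself had 7 and 4 reads in the KO libraries and 5 and 1 in the WT libraries, too few to check the genotype labels. Genes of the cerebellum were present in all 4 libraries. Gabra6, a GABA-A receptor subunit made by granule cells of the cerebellum, stood at 11.0 and 11.0 CPM (reads of a gene scaled to the size of its library) in KO and at 24.2 and 24.2 CPM in WT. The values are therefore given as those of the KO and WT libraries and not of a cell type. Across all genes 21592 were tested, of which 688 were lower in KO (3.19%) and 723 higher (3.35%), by a quasi-likelihood test in edgeR with an adjusted p (Benjamini-Hochberg) under 0.05. Scaled by library size alone, 828 were lower and 601 higher, so which side held more genes depended on the scaling.

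The Zic genes lie in head-to-head pairs, Zic1 beside Zic4 on chromosome 9 and Zic2 beside Zic5 on chromosome 14. The stretches before Zic1 and Zic5, 1 gene of each pair and both lower in KO, are shown to compare what precedes them. Each is given 5′ to 3′ on the gene's strand (minus in both cases), from RefSeq promoters of build GRCm38.p6, up to the first base that the GENCODE annotation puts in an exon. Capitals mark GC boxes (GGGCGG) and CCAAT boxes (CCAAT), both searched on both strands. The Zic1 stretch is chr9:91365811-91366018 and the Zic5 stretch is chr14:122465678-122465908.
Zic1: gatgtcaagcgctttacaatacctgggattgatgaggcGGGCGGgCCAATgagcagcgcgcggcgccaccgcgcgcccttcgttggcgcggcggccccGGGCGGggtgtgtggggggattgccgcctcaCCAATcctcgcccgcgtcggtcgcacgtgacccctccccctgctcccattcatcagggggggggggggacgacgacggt
Zic5: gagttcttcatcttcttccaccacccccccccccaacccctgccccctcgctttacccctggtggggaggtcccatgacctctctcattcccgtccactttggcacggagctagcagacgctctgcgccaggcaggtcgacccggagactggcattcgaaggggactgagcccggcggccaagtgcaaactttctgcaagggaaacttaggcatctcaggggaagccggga
The Zic1 stretch held 2 GC boxes and 2 CCAAT boxes and was 71.2% G or C. The Zic5 stretch held neither box and was 62.3% G or C. The upstream 250 bases held a GC box in 32.7% and a CCAAT box in 33.8% of the 32851 RefSeq promoters, whose median G or C content was 52.4%. The stretches shown are shorter than that. Over the same 250 bases Zic1 was 66.0% and Zic5 was 62.4% G or C, with the same counts of both boxes. The letters CCACCCA, the core of the GLI and ZIC type of site, CAGCAGG and TATAAA, searched on both strands, were found in neither stretch. They occurred in 8.11%, 8.44% and 12.4% of all promoters. Motifs could overlap each other, and a match is only a run of letters. Of the members, Zic1, Zic4 and Zic5 have an entry in the promoter table, and the 250 bases before the Zic4 start fall within annotated exons and are not shown.

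Zic1, Zic2 and Zic5 fell in the KO libraries and Zic4 did not pass the test. In all, 3 of the 4 members were called lower, where 3.19% of all tested genes were (3.35% were called higher). In bulk samples fewer cells of a type and less RNA per cell cannot be told apart. The next paragraphs take the members pair by pair.

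Zic1 (ENSMUSG00000032368), the founding member and the main Zic gene of cerebellar granule cells, had 83.54 and 83.18 CPM in KO libraries 1 and 2, from 6841 and 5895 reads. It had 110.8 and 111.7 CPM in WT libraries 1 and 2, from 8943 and 9165 reads. Both KO libraries were lower than both WT libraries, and the gap was many times the difference within a genotype. That difference was small by counting alone. The KO spread was 0.301% of the mean, where counting error for 6841 reads is 1.21% if each read is counted as independent. Zic1 averaged 83.4 ± 0.251 CPM in KO and 111 ± 0.628 CPM in WT (mean ± SD, n = 2). The log2 fold change was -0.42 (SE 0.0254, adjusted p = 3.08e-11 in edgeR), a change of -25.1% with a 95% interval of -27.7% to -22.3%. By p-value it ranked 19 among the 21592 genes tested. Its change was moderate in size, since 134 genes called lower had a larger fall.

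Zic4 (ENSMUSG00000036972), its head-to-head neighbour, had 8.55 and 8.92 CPM in KO libraries 1 and 2, from 700 and 632 reads. The WT libraries 1 and 2 gave 9.33 and 9.10 CPM, from 753 and 747 reads. Both KO libraries were below both WT libraries, but the gap between the nearest KO and WT libraries was smaller than the difference between the KO libraries. Zic4 averaged 8.73 ± 0.262 CPM in KO and 9.22 ± 0.160 CPM in WT (mean ± SD, n = 2). The log2 fold change was -0.08 (SE 0.0806, adjusted p = 0.706 in edgeR), with a 95% interval from -15.6% to 6.27%. A change as large as that of Zic1 lies outside this interval, and a small one in either direction lies inside it. In the GENCODE annotation exons of Zic1 and Zic4 share 60 bases on opposite strands, 1.05% of the Zic1 exons and 0.581% of the Zic4 exons. Whether the counting used strand is not stated in the sources used here, so reads in that overlap cannot be told apart.

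Zic2 (ENSMUSG00000061524), the gene whose loss causes failure of the forebrain midline in mice and humans, had 30.5 CPM in both KO libraries, from 2497 and 2163 reads. It had 39.8 and 39.9 CPM in WT libraries 1 and 2, from 3212 and 3274 reads. The genotypes did not overlap. Zic2 averaged 30.5 ± 0.0210 CPM in KO and 39.9 ± 0.0727 CPM in WT (mean ± SD, n = 2). These SDs are smaller than counting error, which for 2497 reads is 2.0% if each read is counted as independent, so the fitted SE is the better guide. The log2 fold change was -0.39 (SE 0.0413, adjusted p = 5.54e-07 in edgeR), a change of -23.5% with a 95% interval of -27.8% to -18.8%.

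Zic5 (ENSMUSG00000041703), the neighbour of Zic2, had 7.02 and 6.96 CPM in KO libraries 1 and 2, from 575 and 493 reads. It had 8.91 and 8.73 CPM in WT libraries 1 and 2, from 719 and 716 reads. Here too the genotypes did not overlap. The means were 6.99 ± 0.0459 CPM in KO and 8.82 ± 0.129 CPM in WT (SD, n = 2). The KO spread, 0.657% of the mean, was again below counting error, which for 575 reads is 4.17%. The log2 fold change was -0.33 (SE 0.0845, adjusted p = 0.0140 in edgeR), a change of -20.7% with a 95% interval of -29.8% to -10.5%. The call is close to the threshold. It was lost with DESeq2 (adjusted p = 0.0506) and without WT library 1 (adjusted p = 0.0808 in edgeR), at log2 fold changes of -0.34 and -0.32.

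**Figure D1:**
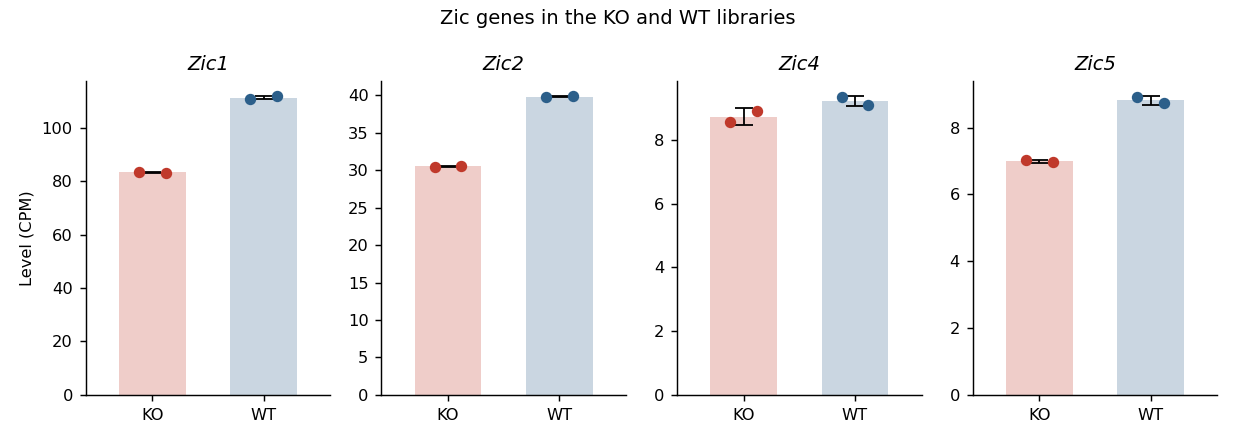
Level of each Zic gene in CPM, with 1 point per library, bars for the mean of 2 libraries and error bars for the SD. Both KO points are below both WT points in all 4 panels, and the gap is smallest for Zic4 (8.73 CPM in KO, 9.22 CPM in WT).

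In all 4 members both KO libraries were below both WT libraries, an arrangement that 22.9% of all tested genes shared. Summed over the 4 members, Zic genes reached 129.6 CPM in each KO library, against 168.9 and 169.4 CPM in WT libraries 1 and 2. Zic1 supplied 64.5% and 64.2% of these reads in KO and 65.6% and 65.9% in WT. Zic2 supplied 23.5% and 23.6% in KO and 23.6% in both WT libraries. The share of Zic4 was 6.60% and 6.88% in KO, against 5.53% and 5.37% in WT.

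Levels of different genes can be set side by side only per length. Divided by the merged exon length in the GENCODE annotation, which may not be the one the authors counted with, Zic1 had 14.6 CPM per kb in KO and 19.5 in WT. Zic2 had 10.6 CPM per kb in KO and 13.8 in WT. Zic5 had 1.43 CPM per kb in KO and 1.80 in WT, and Zic4 had 0.845 in KO and 0.892 in WT. The order Zic1, Zic2, Zic5, Zic4 was the same in both genotypes. Neighbours in it lay apart by more than the spread of either gene, which was at most 3.0% of the mean within a genotype. In KO this spread was below counting error for each member (for Zic4 3.0% against 3.78%), so it understates the uncertainty of a level. The last place of Zic4 rests on a merged exon length of 10.3 kb, against 5.69 kb for Zic1, 2.88 kb for Zic2 and 4.89 kb for Zic5.

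The ratio of Zic1 to Zic2 was 2.74 and 2.73 in the KO libraries and 2.78 and 2.80 in the WT libraries. The ratio of Zic1 to Zic4 was 9.77 and 9.33 in KO, against 11.9 and 12.3 in WT. Zic1 and Zic2 thus kept nearly 1 proportion in every library, while both were lower relative to Zic4 in KO. The ratio of Zic2 to Zic5, the other head-to-head pair, was 4.34 and 4.39 in KO and 4.47 and 4.57 in WT.

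Of the 6 pairs of members compared, 2 differed in log2 fold change when intervals were widened for 6 comparisons. Zic1 minus Zic4 was -0.34 (SE 0.0845, widened interval -0.58 to -0.09). Zic2 minus Zic4 was -0.31 (SE 0.0905, widened interval -0.57 to -0.05). Zic4 minus Zic5 was 0.26 (SE 0.117), with a widened interval of -0.08 to 0.59. For the 3 pairs among Zic1, Zic2 and Zic5 the differences were -0.03, -0.08 and -0.05, and their widened intervals ran at most from -0.34 to 0.22. These intervals combine the fitted errors of 2 genes as if independent. An exact two-sided permutation test over the 4 libraries gave p = 0.333 for each of the 6 ratios, the smallest p that 2 against 2 libraries allow.

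**Figure D2:**
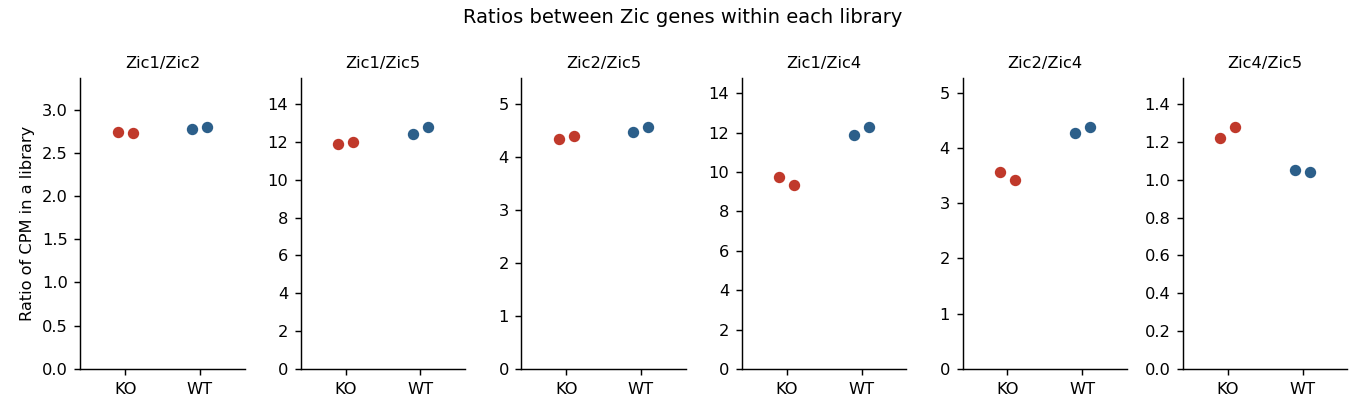
Ratio of the CPM of 2 Zic genes within each library, with 1 point per library and axes starting at 0. The ratio of Zic1 to Zic4 is 9.77 and 9.33 in KO and 11.9 and 12.3 in WT, while that of Zic1 to Zic2 is between 2.73 and 2.80 in all 4 libraries.

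The genes next to the Zic genes in the GENCODE order were read in the same libraries. The noncoding transcript 2610035F20Rik, which lies between Zic5 and Zic2, had 45 and 32 reads in KO and 44 and 26 reads in WT. Its log2 fold change was 0.22 (SE 0.378, adjusted p = 0.850 in edgeR), so a fall like that of its neighbours was not detectable at this depth. The other neighbours, A730094K22Rik, Gm37477, Gm5089 and Gm10837, had between 2 and 16 reads in any library and did not pass the filter.

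Among 11462 genes with a usable symbol and a mean of at least 5 CPM, the 5 whose pattern over the 4 libraries was nearest that of Zic1 were Tspan18, Zic2, Cabp7, Smim3 and Abca4. The measure was the root mean square difference of mean-centred log2 CPM, which ran from 0.0106 for Tspan18 to 0.0184 for Abca4, and was 0.0159 for Zic2. Tspan18, a membrane protein of the tetraspanin family, had 11.6 and 11.7 CPM in KO and 15.6 in both WT libraries. Cabp7, a calcium-binding protein, had 57.9 and 55.8 CPM in KO and 76.2 and 76.3 in WT. Abca4, a lipid transporter best known from photoreceptors, had 5.15 and 5.32 CPM in KO and 6.96 and 7.01 in WT. Zic5 ranked 28 in the same order and Zic4 ranked 1654. With 4 libraries in 2 groups this likeness mostly records an equal fold change.

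The GLI and GLIS genes encode the zinc finger factors closest to the ZIC proteins. Of the 6, 1 fell and the other 5 did not pass, where 3.19% of all tested genes fell (median log2 fold change -0.02, against -0.0004 over all tested genes). The gene that fell was Glis3, with 5.96 and 6.56 CPM in KO and 8.03 and 7.82 CPM in WT (log2 fold change -0.34, SE 0.0907, adjusted p = 0.0200 in edgeR). The call was lost with DESeq2 (adjusted p = 0.0728), without WT library 1 (adjusted p = 0.0968 in edgeR) and without KO library 1 (adjusted p = 0.185 in edgeR). Gli1, a transcriptional target and activator of the Hedgehog pathway, had 3.36 and 3.91 CPM in KO and 4.40 and 4.78 CPM in WT (log2 fold change -0.34, SE 0.121, adjusted p = 0.105 in edgeR), and passed without KO library 2 (adjusted p = 0.0464 in edgeR). Gli3, the main repressor among the GLI factors, had 11.0 and 10.9 CPM in KO and 10.2 and 9.74 CPM in WT, a log2 fold change of 0.13 that did not pass.

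Of 20 Hedgehog pathway genes 2 fell and 18 did not pass, with a median log2 fold change of -0.032. Gpr161, a receptor of the primary cilium that holds the pathway off, had 32.9 and 34.6 CPM in KO and 41.3 CPM in both WT libraries (log2 fold change -0.29, SE 0.0411, adjusted p = 2.78e-05 in edgeR). Disp2, a relative of the Hedgehog ligand exporter, had 410 and 402 CPM in KO and 424 in both WT libraries, a log2 fold change of -0.06 (SE 0.0156, adjusted p = 0.0134 in edgeR) that was not called without KO library 2 (adjusted p = 0.136 in edgeR). Ptch1, the receptor and a target gene of the pathway, had 85.2 and 83.6 CPM in KO and 87.0 and 87.9 CPM in WT and did not pass. Sonic hedgehog itself (Shh) had 3.87 and 4.36 CPM in KO, against 4.06 and 4.03 CPM in WT. The share of the pathway called lower was thus above the 3.19% of all genes through a pair of genes.

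Transcription factors of the granule cell lineage, in which Zic1 and Zic2 work, were lower in larger part. Of 14 listed genes 13 were tested, 8 fell, 1 rose and 4 did not pass, where 3.19% of all tested genes fell and 3.35% rose. Several falls were small, since Nfia, Nfib, Nfix and Pax6 had log2 fold changes between -0.21 and -0.07, while that of Barhl2 was -0.88. Barhl1 (0.04) and En1 (0.02) did not pass. The median log2 fold change was -0.162. Neurod1, which drives granule neuron differentiation, averaged 24.7 CPM in KO and 43.0 CPM in WT (log2 fold change -0.80, SE 0.0475, adjusted p = 1.89e-11 in edgeR). En2, the engrailed gene of midbrain and cerebellum, had 4.51 and 4.88 CPM in KO and 8.74 and 9.70 CPM in WT (log2 fold change -0.98, SE 0.0951, adjusted p = 1.10e-07 in edgeR). Etv1, an ETS factor of maturing granule cells, had 90.7 and 90.4 CPM in KO and 107 and 103 CPM in WT (log2 fold change -0.21, SE 0.0265). Meis2 went the other way and rose, with 162 and 163 CPM in KO, against 146 and 145 CPM in WT. Atoh1, the factor of dividing granule cell precursors, had no reads in any library and was not tested. The falls of Zic1 and Zic2 were smaller than those of Neurod1 and En2 and larger than that of Etv1. Which cells the falls of the listed factors came from was not tested.

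**Figure D3:**
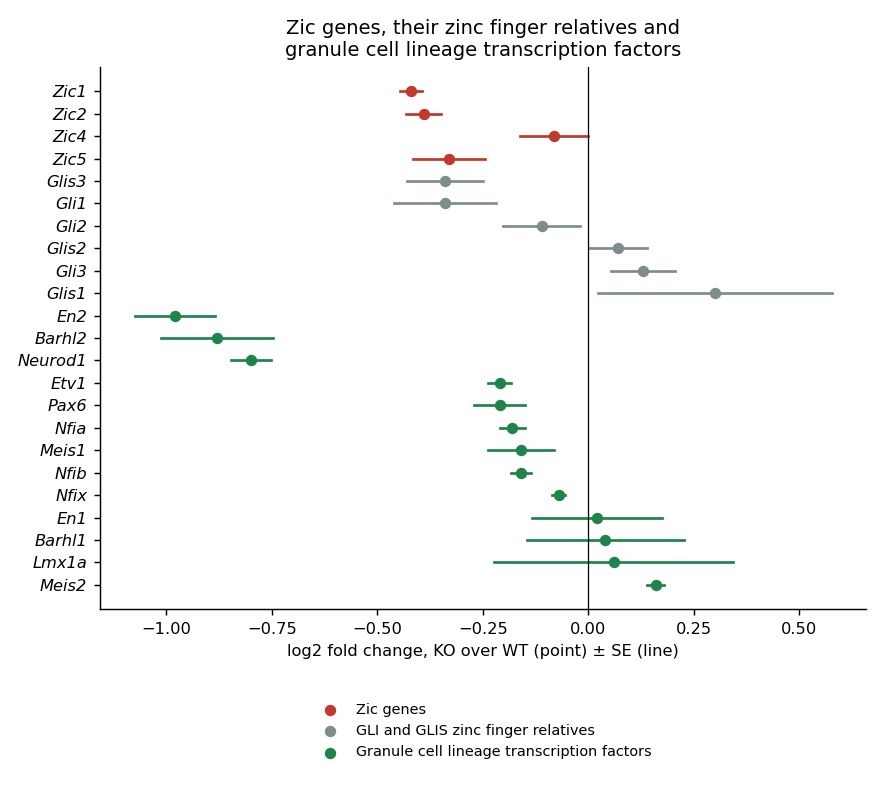
Log2 fold change of KO over WT (points) with its standard error (lines) for the Zic genes, the GLI and GLIS genes and the tested transcription factors of the granule cell lineage. Zic1, Zic2 and Zic5 lie between -0.42 and -0.33 and Zic4 at -0.08, while the lineage factors run from -0.98 (En2) to 0.16 (Meis2).

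Marker genes of cell types that express Zic genes in the mouse brain were set beside the members. Of 12 cerebellar granule cell genes 10 fell and 2 did not pass, where 3.19% of all tested genes fell, and the median log2 fold change was -0.703. Neurod1, En2, Etv1 and Barhl1 are also in the list of lineage transcription factors, so the counts of the 2 lists are not separate. Their summed level was 417 and 413 CPM in KO and 560 and 557 CPM in WT, a change of -25.7%. Cbln3, a secreted synaptic protein of these cells, averaged 19.8 CPM in KO and 46.6 CPM in WT (log2 fold change -1.23). The log2 fold change of Fat2, an atypical cadherin of granule cells, was -1.17 and that of Gabra6 was -1.14. None of the 12 was at 0 in a library. Zic1 fell by less than Cbln3, Fat2 and Gabra6 and by more than Etv1, Chn2 or Grin2c, whose log2 fold changes were -0.21, -0.17 and -0.16.

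Within each library the ratio of Zic1 to the summed granule cell list was 0.200 and 0.201 in KO and 0.198 and 0.200 in WT. That of Zic2 was 0.0732 and 0.0739 in KO and 0.0711 and 0.0716 in WT. For Zic4 the ratio was 0.0205 and 0.0216 in KO, against 0.0167 and 0.0163 in WT. For Zic5 it was 0.0169 and 0.0168 in KO, against 0.0159 and 0.0157 in WT. Relative to this list, then, Zic1 differed by little between genotypes (1.01-fold). Zic2, Zic4 and Zic5 were higher in both KO libraries, by 1.03-fold, 1.28-fold and 1.07-fold. Here 2 against 2 libraries again allow no exact p below 0.333. The sum includes genes that many other neurons express, and the ratio depends on that choice. Against the summed level of Cbln3, Fat2 and Gabra6 alone, chosen after their values were seen, Zic1 stood at 1.64 and 1.65 in KO and at 0.977 and 0.953 in WT. The part of granule cell RNA in the falls of the Zic genes was not tested.

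Leptomeningeal fibroblasts and pericytes, which also express Zic genes in mouse brain, had marker sums that changed by less than those of the cerebellar cell types. Of 14 fibroblast genes 0 were called with edgeR, with DESeq2 or with limma-trend, and 3 had an unadjusted edgeR p under 0.05. Their summed level was 139.9 and 138.7 CPM in KO and 135.9 and 135.5 CPM in WT, a change of 2.65%. The nearest to a call was Slc47a1, an organic cation exporter, with 4.80 and 4.66 CPM in KO and 3.95 and 3.38 CPM in WT (log2 fold change 0.37, adjusted p = 0.0672 in edgeR). It passed with the replicate number as a block (adjusted p = 0.0468 in edgeR) and without WT library 1 (adjusted p = 0.0316 in edgeR). Igf2, a growth factor of meninges and choroid plexus, had 3.96 and 3.74 CPM in KO and 4.71 and 5.02 CPM in WT and did not pass, and Col1a2, a collagen chain, had 36.0 and 34.0 CPM in KO and 32.7 and 32.5 CPM in WT. Relative to the fibroblast sum, Zic1 was at 0.597 and 0.600 in KO and at 0.815 and 0.824 in WT.

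For 13 pericyte and mural cell genes the sum was 301 and 314 CPM in KO and 309 and 305 CPM in WT. Anpep, an aminopeptidase, rose among them (log2 fold change 0.33, adjusted p = 0.0242 in edgeR) and the other 12 did not pass, where 3.35% of all tested genes rose. The Anpep call was lost with DESeq2 (adjusted p = 0.0861) and without WT library 1, WT library 2 or KO library 1 (adjusted p = 0.0707, 0.106 and 0.145 in edgeR). The part of either cell type in the Zic values was not tested.

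The marker lists of other brain regions with Zic activity had median log2 fold changes between -0.031 (dorsal midbrain) and 0.104 (cholinergic basal forebrain and septum). Of 9 thalamic genes 2 rose and 7 did not pass, where 3.35% of all tested genes rose. The sum was 419 and 430 CPM in KO and 403 and 402 CPM in WT. Slc17a6, the vesicular glutamate transporter of thalamic neurons, had 78.6 and 81.5 CPM in KO and 73.8 and 72.6 CPM in WT. Tcf7l2, a thalamic transcription factor, had 51.8 and 55.0 CPM in KO and 46.9 and 48.7 CPM in WT. Both rose with edgeR adjusted p of 0.00634 and 0.00735. Slc17a6 was not called without WT library 2 or KO library 2 (adjusted p = 0.0530 and 0.0651 in edgeR), and Tcf7l2 not without WT library 1 or KO library 2 (adjusted p = 0.0793 and 0.100 in edgeR).

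Of 8 olfactory bulb genes 2 fell and 6 did not pass, where 3.19% of all tested genes fell. Eomes, a T-box factor of mitral and tufted cells that unipolar brush cells of the cerebellum also express, had 7.79 and 8.76 CPM in KO and 11.9 and 11.8 CPM in WT (log2 fold change -0.52, adjusted p = 7.95e-05 in edgeR). Cdhr1, a cadherin of mitral cells, averaged 20.3 CPM in KO and 24.6 CPM in WT (log2 fold change -0.27, adjusted p = 0.00148 in edgeR). For the list as a whole the median was -0.001 and the sum was 117 and 119.9 CPM in KO and 125 and 126 CPM in WT.

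In the lists of cholinergic basal forebrain and septum (7 genes), medial habenula (5 genes) and dorsal midbrain (7 genes) 0 genes were called with edgeR, DESeq2 or limma-trend. At an unadjusted edgeR p under 0.05 there were 1, 1 and 2. Some passed once a library was left out. Chrna3, a nicotinic receptor subunit of the habenula list, did so without WT library 1 (log2 fold change 0.59, adjusted p = 0.0379 in edgeR) and without KO library 1 (0.56, adjusted p = 0.0448 in edgeR). Otx2, a homeobox factor of the midbrain list that choroid plexus also expresses, did so without WT library 2 (-0.44, adjusted p = 0.0124 in edgeR) and without KO library 2 (-0.42, adjusted p = 0.0181 in edgeR). Their summed levels were low, at most 25.6 CPM in any library. The cholinergic sum was 24.7 and 25.6 CPM in KO and 23.2 and 23.3 CPM in WT. In the habenula it was 12.4 and 14.2 CPM in KO and 11.9 and 11.6 CPM in WT, and in the dorsal midbrain 17.0 and 19.3 CPM in KO and 19.5 and 18.7 CPM in WT.

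Other lists also held mostly genes called lower with edgeR. Of 10 Purkinje cell genes, those of the output neurons of the cerebellar cortex, 9 fell and 1 did not pass, with sums of 879 and 882 CPM in KO and 1051 and 1047 CPM in WT. Pcp2, which is specific to these cells in brain, had 7.55 and 7.22 CPM in KO and 18.6 and 19.4 CPM in WT (log2 fold change -1.36). Itpr1 supplied 543 of the mean Purkinje sum of 881 CPM in KO, and its log2 fold change was -0.18. The sum therefore moved less than the median of the list (-0.658). Of 9 choroid plexus genes 7 fell and 2 did not pass, with sums of 448.5 and 441 CPM in KO and 644 and 644.5 CPM in WT. Ttr alone supplied 386 of the mean choroid plexus sum of 445 CPM in KO. Of 6 dentate granule cell genes 5 fell and 1, Npnt, rose, with sums of 111 and 109 CPM in KO and 136.3 and 135.6 CPM in WT. Of 7 genes of CA pyramidal cells, the principal neurons of the hippocampus proper, 5 fell and 2 did not pass, with a median of -0.164. Their sum was 434.8 and 422.2 CPM in KO and 448.1 and 450.9 CPM in WT. That change of -4.68% is smaller than the -5.64% of the olfactory bulb sum. With DESeq2 only 1 of these 7 was called. All these lists held more genes called lower than the 3.19% of all tested genes, and their part in the Zic values was not tested.

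**Figure D4:**
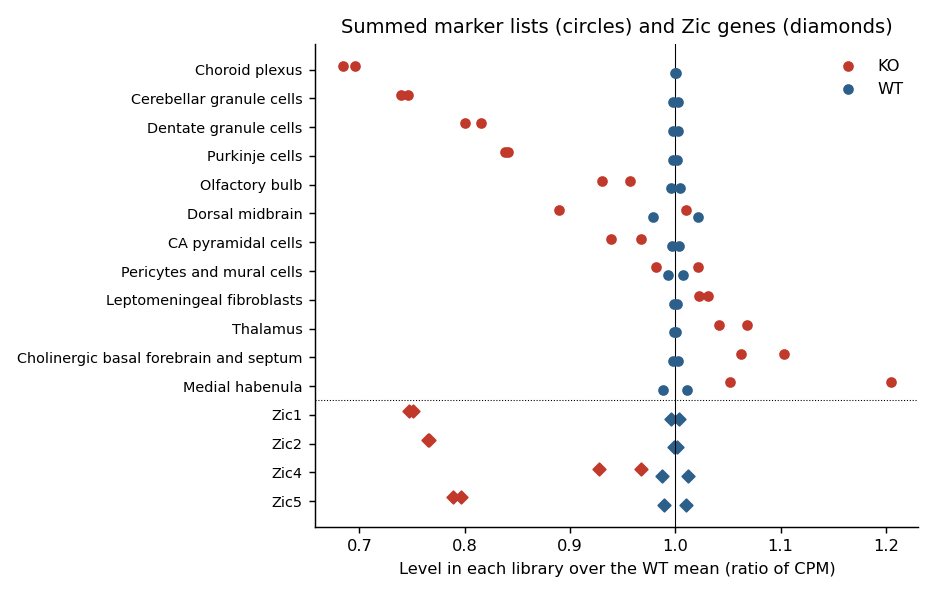
Summed level of each marker list (circles) and level of each Zic gene (diamonds) in every library, divided by the mean of the WT libraries (ratio of CPM; the axis does not start at 0). The KO over WT ratios of Zic1 (0.749), Zic2 (0.765) and Zic5 (0.793) lie within the range of the summed choroid plexus (0.690), cerebellar granule cell (0.743), dentate granule cell (0.808) and Purkinje cell (0.839) lists. A sum leans on the most abundant genes of its list. The median log2 fold changes of these lists were -0.517, -0.703, -0.706 and -0.658 in the same order. The leptomeningeal sum changed by 2.65% and the pericyte and mural cell sum by 0.175%.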

How the data were processed

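The authors deposited 1 table of raw read counts by gene for the 4 libraries. The tools named in the submitters' processing notes, without their roles, are STAR 2.6.1c, featureCounts, DESeq2 and FastQC, and the build is GRCm39. The sources used here do not say which annotation release, strand setting or rule for multi-mapping reads was used. Per the labels' protocols, RNA was captured on oligo dT beads and strand-specific libraries were read as pairs.

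Columns were matched to samples by name and symbols by Ensembl ID (52081 of 55414 matched). Counts were tested with edgeR 4.0.16 (R 4.3.3). The filter kept genes by filterByExpr at a minimum count of 10, libraries were scaled with TMM, and the genotype term was tested (glmQLFit, glmQLFTest). Adjusted p-values cover all 21592 genes. A standard error is the log2 fold change over the square root of F, and 95% intervals use the t quantile of the fit. CPM were computed with the TMM-scaled library size. Counting error is treated as independent reads and is therefore too small. Alternatives used DESeq2 1.42.0 and limma 3.58.1. The procedure was tested on 1 simulated data set with 200 changed genes and 2.5 times the Poisson variance. Of 162 calls 22 (13.6%) were unchanged genes, more than the nominal level allows. Of 50 genes changed 1.1-fold, the smallest change, 11 were called. The real counts had more calls and appear to count fragments as 2 reads, so these shares need not carry over. Adjusted p-values near the threshold should still be taken as optimistic.

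The members, the 15 lists and the tests were chosen with earlier results of these data known. Named were the Zic genes, up to 3 genes per list by smallest p, further genes by choice, and the 5 nearest patterns. Of 5 rows that fit the family rule, 1 is not reported here. Promoters and gene order come from GRCm38 tables (RefSeq, GENCODE M21), another build than the counts.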

Additional observations from a re-analysis of the deposited data

How the results depend on the processing

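Under 13 alternative settings the log2 fold changes of Zic1, Zic2 and Zic4 kept their direction and their side of the threshold. Zic5 kept its direction, at -0.34 with DESeq2 (adjusted p = 0.0506, not called), and ranged from -0.35 to -0.32 with 1 library left out, where it was not called without WT library 1 (adjusted p = 0.0808 in edgeR). A fit after leaving out a library assumes that the lone library varies like the other genotype. The cause was not tested. The replicate number as a block left 3 members lower. The numbers do not mark a stated pair, and the deviations of same-numbered libraries correlated at 0.0157 over 21592 genes. Among single genes of the lists, Tac2 ranged from -0.02 to 0.22 and Gata3 from -0.27 to 0.01 with 1 library left out, and each turned sign in 1 of these fits (Tac2 where WT library 2 was left out, Gata3 where KO library 1 was). The number of genes called, 1411, was 1011 with DESeq2 and 1590 with the block, and between 1064 and 1273 with 1 library left out. Depth limits Zic4 and Zic5, with 493 to 753 reads per library, most. The 95% interval of the Zic4 change ran from -15.6% to 6.27% around an estimate of -5.31%, so no change lies inside it.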
